A study of Mus musculus with 23 samples.

Results

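Tumour necrosis factor (TNF) receptors and their ligands were examined as 9 genes in sorted mouse CD4+ T cells: the receptors Tnfrsf4, Tnfrsf9, Tnfrsf18, Tnfrsf1b, Cd27 and Fas, and the ligands Tnfsf11, Tnfsf4 and Tnfsf8. Every probe set annotated to a member gene alone was taken, which gave 13 of the 45101 probe sets of the array, or 9 of 18194 measured genes. CD4+ T cells had been sorted into 4 gates by CD25, the interleukin-2 receptor alpha chain, and CD49f, the integrin alpha 6 chain, and total RNA from each sort was hybridised to an Affymetrix array. The CD25+CD49f+ gate was measured on 4 arrays, the CD25+CD49f- gate on 5, the CD25-CD49f+ gate on 7 and the CD25-CD49f- gate on 7. All 23 arrays carry the labels T cells and female. The labels used here do not give a strain, genotype, age, organ or treatment. Arrays of a gate are labelled biological replicates, and p-values measure the spread between them.

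TNF receptors of this group are surface proteins that bind trimeric ligands on neighbouring cells and signal through TRAF adaptors, mostly to NF-kappa B, whereas Fas carries a death domain and can trigger apoptosis. Several of them, among them OX40 (Tnfrsf4), 4-1BB (Tnfrsf9), GITR (Tnfrsf18) and TNFR2 (Tnfrsf1b), are known costimulatory receptors that are abundant on Foxp3+ regulatory T cells and appear on conventional T cells after activation. RANKL (Tnfsf11), OX40 ligand (Tnfsf4) and CD30 ligand (Tnfsf8) are the members on the ligand side, and activated T cells are a known source of RANKL.

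Values are log2 expression from the deposited table, in which a level can be compared between arrays for a probe set but not between probe sets. Xist and Y-linked transcripts on arrays that lack them read up to 6.50. The highest of these values was Xist, and the mean of the Y-linked probe sets on such arrays ran from 2.86 to 3.60. The level of an absent transcript thus differs between probe sets, and a value below 6.50 alone does not show that a transcript is present. Such values are described below as in the range of absent transcripts. Differences are log2 differences ± the standard error from limma, fitted across all 45101 probe sets with Benjamini-Hochberg adjustment, and genes were called where the adjusted p of their brightest probe set was under 0.05.

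The gates were checked first. Foxp3, the master transcription factor of regulatory T cells, averaged 9.85, 9.79, 8.25 and 4.74 in CD25+CD49f+, CD25+CD49f-, CD25-CD49f+ and CD25-CD49f- cells, and Il2ra, which encodes CD25, averaged 9.60, 9.69, 6.84 and 5.42. Itga6, which encodes CD49f, averaged 9.81, 9.64, 9.36 and 9.79 and so did not follow the CD49f gate. Within CD25- cells it ran opposite to the gate, with CD25-CD49f+ minus CD25-CD49f- at -0.44 ± 0.08 (limma adjusted p = 5.12e-04). Within CD25+ cells CD25+CD49f+ minus CD25+CD49f- gave 0.16 ± 0.10 and was not called. Markers of CD4 T cells (Cd3e, Cd3g, Cd3d, Cd4, Cd28) averaged between 10.7 and 11.4 on every array. Y-linked transcripts were present on 11 arrays, Xist on 13 and both on 1, replicate 5 of CD25+CD49f-, although all are labelled female. The 4 arrays that correlated least with their own gate (mean r of 0.967 to 0.981) were replicate 5 of CD25+CD49f-, replicate 1 of CD25-CD49f+ and replicates 1 and 7 of CD25-CD49f-. The 3′ to 5′ difference of Actb probe sets, a sign of RNA quality, was 4.83 in replicate 5 of CD25+CD49f- and 2.70 in replicate 1 of CD25-CD49f-, and between 1.22 and 2.09 on the other arrays.

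The means of some marker lists also moved with the gates. The mean of 5 regulatory T cell markers ran from 10.59 to 10.76 in CD25+CD49f+, from 10.14 to 10.59 in CD25+CD49f-, from 9.06 to 9.46 in CD25-CD49f+ and from 6.0 to 6.86 in CD25-CD49f- arrays. These markers were Foxp3, Il2ra, Ikzf2, Ctla4 and Nrp1, so that the list holds the gene of the CD25 gate itself. The mean of 5 genes of dividing cells (Mki67, Top2a, Ccnb2, Birc5, Cdk1) ran from 8.03 to 8.63, 7.0 to 7.69, 9.15 to 9.62 and 6.20 to 7.01 in the same order of gates. Myeloid and dendritic markers (8 genes) averaged 6.06 to 6.61, 6.01 to 6.52, 6.36 to 6.93 and 6.44 to 7.67, and 3 NK cell markers 5.70 to 6.12, 5.92 to 6.44, 6.27 to 6.61 and 7.06 to 7.55. Calls against the CD25-CD49f- gate in these 2 lists mostly pointed down. Of the 8 myeloid and dendritic markers, limma called 4 lower in CD25-CD49f+, 3 in CD25+CD49f- and 4 in CD25+CD49f+ cells. None of the 8 was higher in these comparisons. For each of these gates 2 of the 3 NK cell markers were lower, and only the CD25+CD49f- gate had 1 that was higher. Neutrophil markers (S100a8 and S100a9 were measured) averaged from 8.21 to 10.22 and were called in no comparison. Of the lists for B cells, CD8 T cells, platelets, erythroid cells and stromal cells, all with means below 6.64, at most 1 gene per list was called in any comparison. The part of these markers, or of the cells they mark, in the differences below was not tested. In such bulk RNA, fewer cells of a type and less RNA per cell cannot be told apart.

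Promoters of the 5 members that differ most between the gates are shown to set their sequences beside the levels that follow. Each is the RefSeq window from 250 bases before to 50 after a gene's start (build GRCm38.p6), 5′ to 3′ on the gene's strand, and capitals mark matches on either strand to GGGNNNNNCC (kappa B), TGANTCA (AP-1) or TTCNNNGAA (STAT). Tnfrsf4 lies at chr4:156013445-156013744 (+ strand) and Tnfrsf18 at chr4:156026072-156026371 (+ strand), close together on the same chromosome. The windows of Tnfrsf9 lie at chr4:150919905-150920204 and chr4:150927749-150928048 (both + strand), that of Tnfrsf1b at chr4:145246821-145247120 (- strand) and that of Tnfsf11 at chr14:78307994-78308293 (- strand).
Tnfrsf4: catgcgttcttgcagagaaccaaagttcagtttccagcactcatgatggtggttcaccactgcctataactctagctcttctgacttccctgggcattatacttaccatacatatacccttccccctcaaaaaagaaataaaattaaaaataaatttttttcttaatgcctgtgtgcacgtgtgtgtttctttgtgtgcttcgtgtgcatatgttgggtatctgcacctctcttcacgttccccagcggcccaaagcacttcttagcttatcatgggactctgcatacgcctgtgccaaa
Tnfrsf18: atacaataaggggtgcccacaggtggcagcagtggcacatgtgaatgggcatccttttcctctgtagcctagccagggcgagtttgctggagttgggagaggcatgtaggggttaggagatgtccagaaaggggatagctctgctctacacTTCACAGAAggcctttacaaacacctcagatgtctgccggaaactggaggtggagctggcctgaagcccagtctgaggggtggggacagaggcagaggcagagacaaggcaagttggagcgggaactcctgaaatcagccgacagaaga
Tnfrsf9 upstream start: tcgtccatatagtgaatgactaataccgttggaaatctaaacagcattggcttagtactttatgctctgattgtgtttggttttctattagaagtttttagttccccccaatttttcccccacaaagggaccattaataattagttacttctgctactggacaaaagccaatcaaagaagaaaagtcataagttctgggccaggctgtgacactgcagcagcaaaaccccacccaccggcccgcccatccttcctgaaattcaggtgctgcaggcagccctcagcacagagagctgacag
Tnfrsf9 downstream start: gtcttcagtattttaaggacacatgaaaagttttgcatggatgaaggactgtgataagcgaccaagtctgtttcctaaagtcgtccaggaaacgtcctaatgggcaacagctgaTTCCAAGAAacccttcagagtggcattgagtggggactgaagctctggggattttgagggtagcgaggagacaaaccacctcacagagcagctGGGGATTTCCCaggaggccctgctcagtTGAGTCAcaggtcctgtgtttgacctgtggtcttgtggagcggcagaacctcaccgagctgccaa
Tnfrsf1b: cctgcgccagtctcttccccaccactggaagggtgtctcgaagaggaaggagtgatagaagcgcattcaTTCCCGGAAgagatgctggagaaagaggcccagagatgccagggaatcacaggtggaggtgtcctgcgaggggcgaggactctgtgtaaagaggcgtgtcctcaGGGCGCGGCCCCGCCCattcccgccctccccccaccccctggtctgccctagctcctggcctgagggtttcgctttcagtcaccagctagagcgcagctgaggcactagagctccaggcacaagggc
Tnfsf11: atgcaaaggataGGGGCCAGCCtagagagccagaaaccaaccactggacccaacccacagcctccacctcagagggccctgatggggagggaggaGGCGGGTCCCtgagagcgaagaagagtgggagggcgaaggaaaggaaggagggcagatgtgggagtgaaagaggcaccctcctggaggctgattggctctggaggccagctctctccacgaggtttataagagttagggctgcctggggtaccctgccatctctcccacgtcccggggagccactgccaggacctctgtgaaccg

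RefSeq promoters matched 8 of the 9 members, with 9 windows. The kappa B letters were found in 5 of the 9 windows, against 50.8% of all 32851 promoters of the same length. The AP-1 letters were in 2 windows, against 7.8% of all promoters, and the STAT letters in 4, against 8.3%. Kappa B matches that overlap were counted separately in the downstream Tnfrsf9 window and in that of Tnfrsf1b, and 1 run of capitals there can hold several of them. The Tnfrsf4 window and the upstream Tnfrsf9 window held none of these motifs, and the Tnfrsf18 window held a STAT match alone. A match is a description of the letters and not a bound site.

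Of the 6 receptors, Tnfrsf4, Tnfrsf9, Tnfrsf18 and Tnfrsf1b had overlapping levels in both CD25+ gates and were lower in CD25-CD49f+ cells and lowest in CD25-CD49f- cells. Cd27, which is also costimulatory, and Fas did not keep these steps and are described after them. Tnfrsf4, which encodes OX40, had 11.07, 11.17, 11.33 and 11.15 in the 4 CD25+CD49f+ arrays and 11.05, 11.34, 11.18, 11.23 and 10.92 in the 5 CD25+CD49f- arrays. It ran from 9.53 to 10.42 (median 9.89) in CD25-CD49f+ arrays and from 7.94 to 8.76 (median 8.45) in CD25-CD49f- arrays. Neither CD25- gate overlapped another gate, while the CD25+ gates overlapped. The difference was 2.78 ± 0.13 between CD25+CD49f- and CD25-CD49f- arrays (adjusted p = 1.1e-13), 1.30 ± 0.14 between CD25+CD49f+ and CD25-CD49f+ arrays (adjusted p = 1.33e-06) and 1.51 ± 0.12 between CD25-CD49f+ and CD25-CD49f- arrays (adjusted p = 2.35e-09).

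Tnfrsf9, which encodes the costimulatory receptor 4-1BB, kept the same order. Its brightest probe set had 9.88, 10.10, 10.39 and 9.97 in CD25+CD49f+ arrays and 10.49, 10.40, 9.86, 10.57 and 9.64 in CD25+CD49f- arrays. It ran from 8.45 to 8.80 (median 8.69) in CD25-CD49f+ arrays and from 7.03 to 8.03 (median 7.34) in CD25-CD49f- arrays. The ranges of both CD25- gates lay apart from each other and below the CD25+ gates, which overlapped. CD25+CD49f- cells exceeded CD25-CD49f- cells by 2.70 ± 0.16 (adjusted p = 8.01e-12), CD25+CD49f+ cells exceeded CD25-CD49f+ cells by 1.44 ± 0.18 (adjusted p = 6.07e-06), and CD25-CD49f+ cells exceeded CD25-CD49f- cells by 1.16 ± 0.15 (adjusted p = 4.30e-06).

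**Figure D1:**
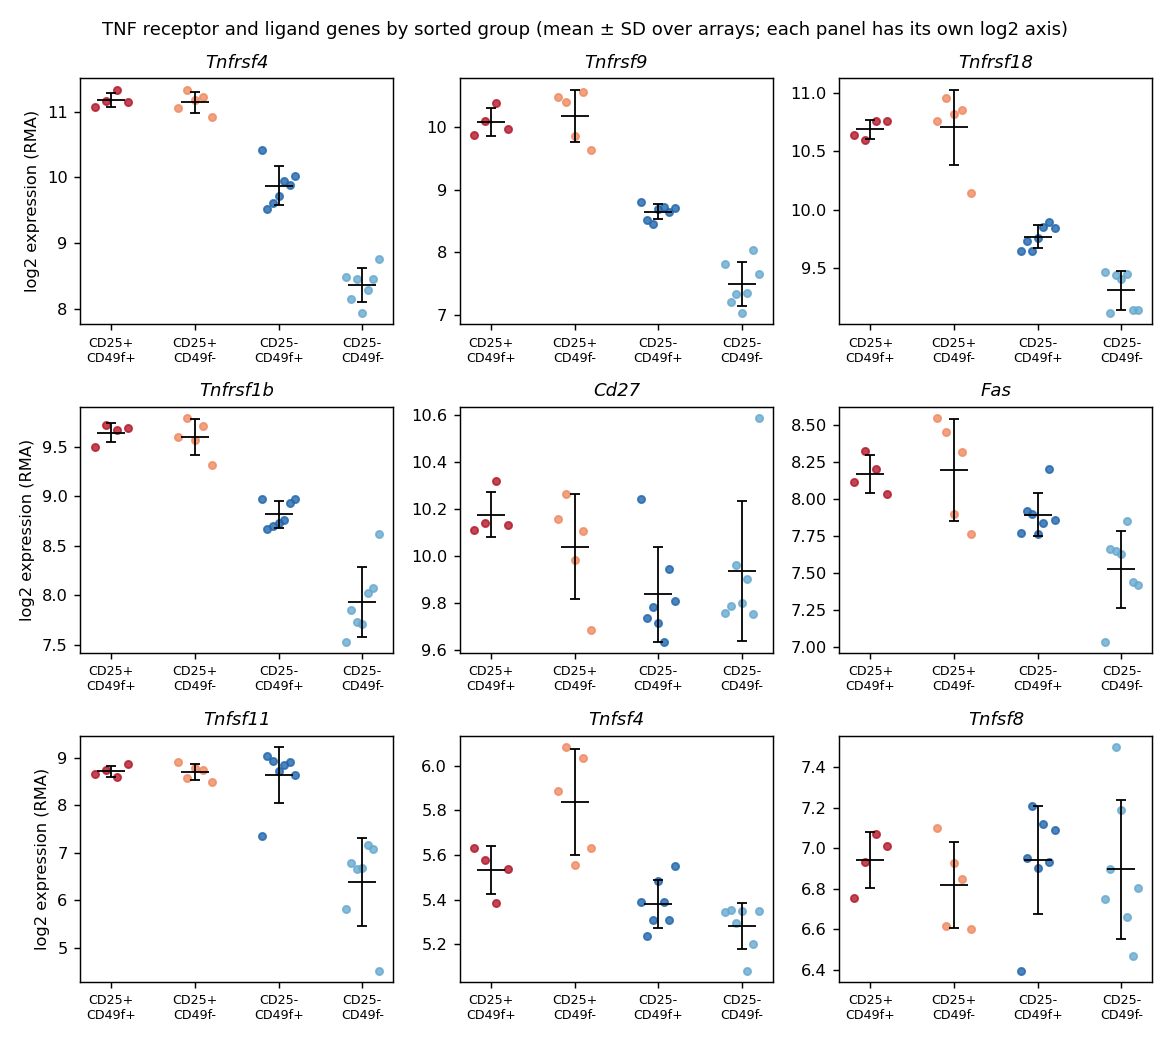
Log2 expression of the 9 genes (y axis, a scale of its own per panel) by sorted gate (x axis), on each gene's brightest probe set; points are arrays, bars the mean ± SD over 4, 5, 7 and 7 arrays. Tnfrsf4, Tnfrsf9, Tnfrsf18 and Tnfrsf1b step down at both CD25- gates, whereas Tnfsf11 is low in CD25-CD49f- cells alone.

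Tnfrsf18, which encodes GITR, had 10.64, 10.60, 10.76 and 10.76 in CD25+CD49f+ arrays and 10.76, 10.96, 10.82, 10.85 and 10.15 in CD25+CD49f- arrays, the last being replicate 5. It ran from 9.65 to 9.90 (median 9.76) in CD25-CD49f+ arrays and from 9.12 to 9.47 (median 9.40) in CD25-CD49f- arrays, so that the CD25- gates lay apart. The step between CD25+CD49f- and CD25-CD49f- arrays was 1.40 ± 0.11 (adjusted p = 8.44e-10), that between CD25+CD49f+ and CD25-CD49f+ arrays 0.92 ± 0.12 (adjusted p = 1.01e-05), and that between CD25-CD49f+ and CD25-CD49f- arrays 0.46 ± 0.10 (adjusted p = 0.00239). On the 12 arrays without Y-linked signal the last difference was 0.26, with an adjusted p of 0.141.

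Tnfrsf1b, which encodes TNFR2, the TNF receptor without a death domain, had 9.50, 9.72, 9.67 and 9.69 in CD25+CD49f+ arrays and 9.60, 9.79, 9.57, 9.71 and 9.31 in CD25+CD49f- arrays. It ran from 8.67 to 8.98 (median 8.76) in CD25-CD49f+ arrays and from 7.53 to 8.62 (median 7.85) in CD25-CD49f- arrays. The CD25- gates again did not overlap each other or the CD25+ gates. Differences were 1.66 ± 0.13 between CD25+CD49f- and CD25-CD49f- arrays (adjusted p = 1.15e-09), 0.82 ± 0.14 between CD25+CD49f+ and CD25-CD49f+ arrays (adjusted p = 4.88e-04) and 0.89 ± 0.12 between CD25-CD49f+ and CD25-CD49f- arrays (adjusted p = 9.02e-06). Among the 10 arrays with Y-linked signal and no Xist, the difference between CD25+CD49f+ and CD25-CD49f+ arrays was 0.79 (adjusted p = 0.166) and that between CD25-CD49f+ and CD25-CD49f- arrays 0.71 (adjusted p = 0.0614), neither of them called.

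Fas, the death receptor, moved less. It had 8.11, 8.33, 8.20 and 8.03 in CD25+CD49f+ arrays and 8.54, 8.45, 7.90, 8.31 and 7.76 in CD25+CD49f- arrays, against 7.76 to 8.20 (median 7.86) in CD25-CD49f+ arrays and 7.04 to 7.85 (median 7.63) in CD25-CD49f- arrays. The CD25+CD49f+ and CD25-CD49f- ranges lay apart, whereas every other pair of gates overlapped. CD25+CD49f+ cells exceeded CD25-CD49f- cells by 0.64 ± 0.14 (adjusted p = 0.00321) and CD25+CD49f- cells exceeded them by 0.67 ± 0.13 (adjusted p = 0.00104), and neither was called among arrays with Y-linked signal and no Xist (0.61, adjusted p = 0.0812, and 0.60, adjusted p = 0.102). The first was 0.68 on the arrays without Y-linked signal (adjusted p = 0.0596). The difference of 0.37 ± 0.12 between CD25-CD49f+ and CD25-CD49f- arrays missed the threshold (adjusted p = 0.0571).

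Cd27, the receptor for CD70, averaged 10.17 ± 0.10, 10.04 ± 0.22, 9.84 ± 0.20 and 9.94 ± 0.30 in CD25+CD49f+, CD25+CD49f-, CD25-CD49f+ and CD25-CD49f- arrays (SD, n = 4, 5, 7 and 7), and all 4 ranges overlapped. No comparison of Cd27 was called. Its 95% interval between CD25+CD49f+ and CD25-CD49f+ arrays ran from 0.05 to 0.62 (adjusted p = 0.325), and between CD25+CD49f- and CD25-CD49f- arrays from -0.16 to 0.37. When the 4 arrays of lowest correlation were left out, both differences were called, at 0.41 (adjusted p = 8.16e-04) and 0.29 (adjusted p = 0.0136).

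On the ligand side, Tnfsf11 differed from Tnfrsf4, Tnfrsf9, Tnfrsf18 and Tnfrsf1b in that the mean of CD25-CD49f+ cells lay close to those of the CD25+ gates. Its brightest probe set had 8.66, 8.74, 8.60 and 8.88 in CD25+CD49f+ arrays and 8.93, 8.57, 8.80, 8.75 and 8.50 in CD25+CD49f- arrays. It ran from 7.35 to 9.05 (median 8.85) in CD25-CD49f+ arrays and from 4.51 to 7.17 (median 6.68) in CD25-CD49f- arrays, with the mean of CD25-CD49f- arrays, 6.39, in the range of absent transcripts. Only CD25-CD49f- cells lay apart from the other gates, by 2.33 ± 0.36 below CD25+CD49f+ cells (adjusted p = 4.50e-05), 2.32 ± 0.33 below CD25+CD49f- cells (adjusted p = 1.78e-05) and 2.26 ± 0.30 below CD25-CD49f+ cells (adjusted p = 8.65e-06). CD25+CD49f+ minus CD25-CD49f+ cells gave 0.08 ± 0.36 (95% interval -0.66 to 0.81). Without the 4 arrays, which include replicate 7 of CD25-CD49f- at 4.51 and replicate 1 of CD25-CD49f+ at 7.35, the CD25-CD49f+ minus CD25-CD49f- difference was 1.98 ± 0.10.

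Tnfsf4, the OX40 ligand, stayed below 6.50 on every array: 5.63, 5.58, 5.38 and 5.54 in CD25+CD49f+ arrays, 5.89, 6.08, 5.56, 6.03 and 5.63 in CD25+CD49f- arrays, 5.24 to 5.55 in CD25-CD49f+ arrays and 5.08 to 5.35 in CD25-CD49f- arrays. Within this low range CD25+CD49f- cells exceeded CD25-CD49f- cells by 0.56 ± 0.09 (adjusted p = 7.88e-05) and CD25-CD49f+ cells by 0.46 ± 0.09 (adjusted p = 0.00137). Among arrays with Y-linked signal and no Xist these were 0.49 (adjusted p = 0.152) and 0.38 (adjusted p = 0.638). Tnfsf8, the CD30 ligand, averaged 6.94 ± 0.14, 6.82 ± 0.21, 6.94 ± 0.27 and 6.89 ± 0.35 in CD25+CD49f+, CD25+CD49f-, CD25-CD49f+ and CD25-CD49f- arrays (SD, n = 4, 5, 7 and 7). Its ranges overlapped in all 4 gates and no comparison was called.

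The counts of called members are given beside the share of all probe sets called. Members were counted on 1 probe set per gene, and shares fitted that way were higher. They were 14% for CD25+CD49f- minus CD25-CD49f-, 5.72% for CD25+CD49f+ minus CD25-CD49f+, 13.2% for CD25+CD49f+ minus CD25-CD49f- and 8.86% for CD25+CD49f- minus CD25-CD49f+. For CD49f they were 13.4% within CD25- cells and 1.82% within CD25+ cells, and for the interaction 5.31%. In CD25+CD49f- cells 7 of the 9 genes were higher than in CD25-CD49f- cells and none was lower, where 9.94% of all probe sets were called, and the median member difference was 1.40, against -0.03 over all probe sets. In CD25+CD49f+ cells 4 of 9 were higher than in CD25-CD49f+ cells, where 3.23% of all probe sets were called, with medians of 0.34 and 0.01. Comparing gates that differ in both markers, 6 of 9 were higher in CD25+CD49f+ cells than in CD25-CD49f- cells (9.28% of all probe sets called) and 5 of 9 were higher in CD25+CD49f- cells than in CD25-CD49f+ cells (5.13% called). Tnfrsf4, Tnfrsf9, Tnfrsf18 and Tnfrsf1b were called in all 4 of these comparisons. For CD25+CD49f+ minus CD25-CD49f- cells the differences were 2.82 ± 0.14 for Tnfrsf4, 2.60 ± 0.18 for Tnfrsf9, 1.38 ± 0.12 for Tnfrsf18 and 1.71 ± 0.14 for Tnfrsf1b. For CD25+CD49f- minus CD25-CD49f+ cells they were 1.27 ± 0.13, 1.54 ± 0.16, 0.94 ± 0.11 and 0.78 ± 0.13 for the same genes in that order, and the last, for Tnfrsf1b, was not called among arrays with Y-linked signal and no Xist. These comparisons share arrays. Without the 4 arrays of lowest correlation, CD25+CD49f- minus CD25-CD49f- gave 2.94 for Tnfrsf4, 2.94 for Tnfrsf9, 1.54 for Tnfrsf18 and 1.79 for Tnfrsf1b, all still called.

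The CD49f comparison depended on CD25. Within CD25- cells 5 of 9 genes (Tnfrsf4, Tnfrsf9, Tnfrsf18, Tnfrsf1b, Tnfsf11) were higher in CD25-CD49f+ cells than in CD25-CD49f- cells and none was lower, where 9.83% of all probe sets were called. Within CD25+ cells limma called 0 of 9 genes between CD25+CD49f+ and CD25+CD49f- arrays, where 1.11% of all probe sets were called, and 1 gene, Tnfsf4, had an unadjusted p under 0.05. Its difference was -0.31 ± 0.10 (adjusted p = 0.305), and with array weights the call was made at -0.35 (adjusted p = 0.0349). For Tnfrsf4 the CD25+CD49f+ minus CD25+CD49f- difference was 0.04 ± 0.15 (95% interval -0.28 to 0.36) and for Tnfsf11 0.01 ± 0.38 (95% interval -0.78 to 0.80), a wider bound. The intervals were -0.49 to 0.28 for Tnfrsf9, -0.27 to 0.24 for Tnfrsf18 and -0.26 to 0.36 for Tnfrsf1b.

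**Figure D2:**
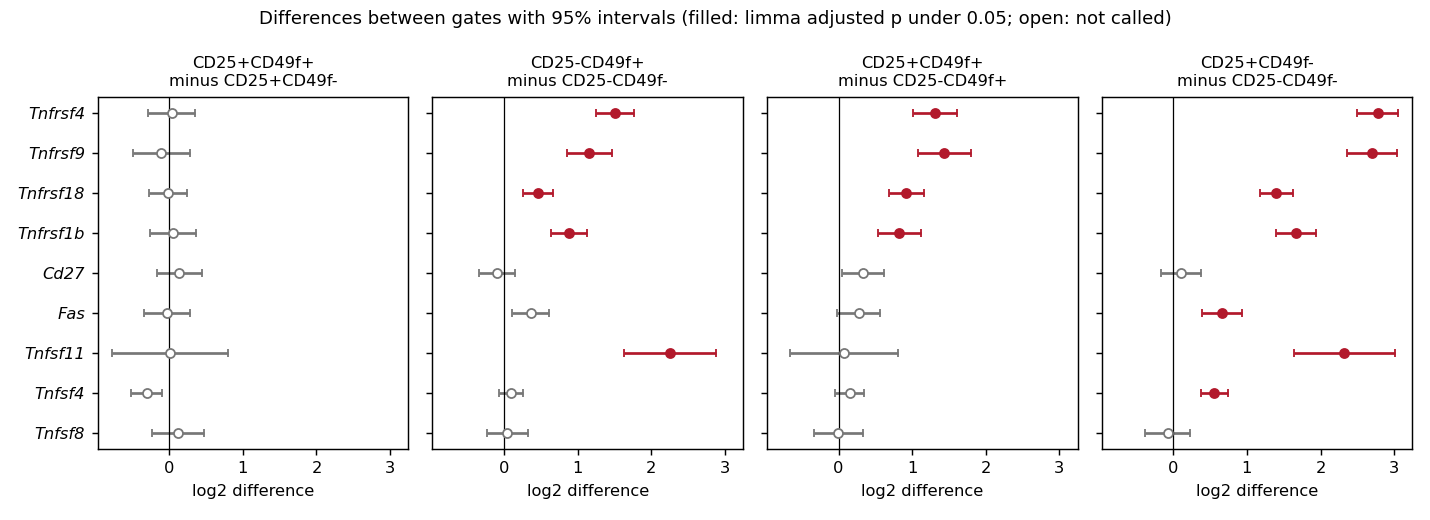
Log2 differences (x axis) of the 9 genes (rows) in 4 comparisons (panels), with 95% intervals; filled points passed an adjusted p of 0.05. CD25+CD49f+ minus CD25+CD49f- shows no filled point, and CD25+CD49f- minus CD25-CD49f- shows 7.

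The test of that dependence is the interaction, the CD49f difference within CD25+ cells minus that within CD25- cells. It was called below 0 for 4 of 9 genes and above 0 for none, where 3.12% of all probe sets were called in either direction. Values were -1.47 ± 0.20 for Tnfrsf4 (adjusted p = 2.45e-05), -1.27 ± 0.24 for Tnfrsf9 (adjusted p = 0.00174), -0.84 ± 0.19 for Tnfrsf1b (adjusted p = 0.0111) and -2.25 ± 0.49 for Tnfsf11 (adjusted p = 0.00676). Tnfrsf18 gave -0.48 ± 0.16 (adjusted p = 0.133), and -0.62 (adjusted p = 0.00214) without replicate 5 of CD25+CD49f-. Among arrays with Y-linked signal and no Xist the interaction was -1.46 for Tnfrsf4 (adjusted p = 0.0212), and was not called for Tnfrsf9 (-1.10), Tnfrsf1b (-0.67) or Tnfsf11 (-2.71). In that subset the Tnfrsf18 interaction was called, at -0.81 (adjusted p = 0.0319), as it was with array weights (-0.60), with the Actb covariate (-0.56) and without the 4 arrays of lowest correlation (-0.64). Among arrays without Y-linked signal it was called for Tnfrsf4 (-1.60), Tnfrsf9 (-1.69) and Tnfrsf1b (-1.10) and not for Tnfsf11 (-1.99, adjusted p = 0.245). CD25-CD49f+ cells also had the highest mean of dividing-cell genes and CD25-CD49f- cells the lowest, as given above. The interaction was also called below 0 for all 5 regulatory T cell markers and all 5 dividing-cell genes. Among these regulatory T cell markers, Foxp3 gave -3.46 ± 0.19 (limma adjusted p = 1.21e-11) and Il2ra -1.51 ± 0.17 (adjusted p = 2.31e-06). The part of these markers in the member interactions was not tested.

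**Figure D3:**
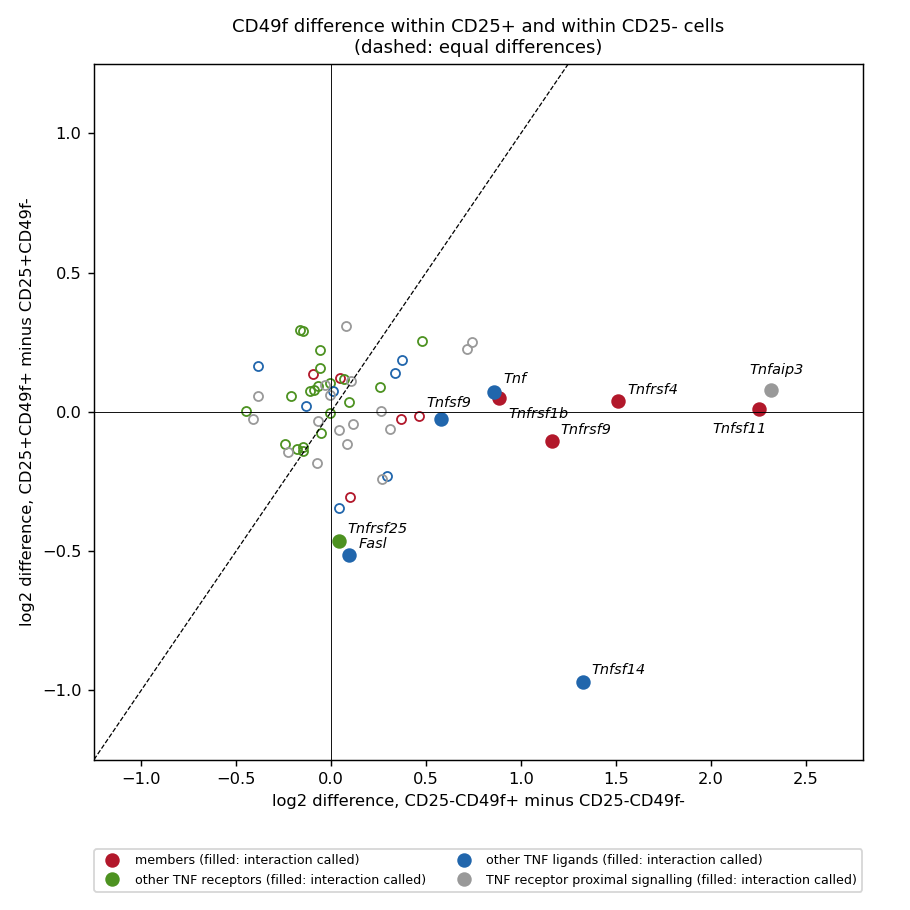
CD49f difference within CD25- cells (x axis) against that within CD25+ cells (y axis), both log2, for the 9 members and the other listed TNF receptors, ligands and signalling genes; filled points passed the interaction test. Tnfsf11 (2.26, 0.01) and Tnfrsf4 (1.51, 0.04) lie along the horizontal axis, and Tnfsf14 (1.33, -0.97) lies below it.

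Of the 3 members with several probe sets, the other ones were dim. A further Tnfrsf9 probe set averaged 6.20 ± 0.31, 6.48 ± 0.54, 4.77 ± 0.12 and 3.93 ± 0.34 in CD25+CD49f+, CD25+CD49f-, CD25-CD49f+ and CD25-CD49f- arrays (SD) and was called in the same direction as the bright one, by 2.55 ± 0.19 between CD25+CD49f- and CD25-CD49f- arrays (adjusted p = 2.86e-10). The remaining Tnfrsf9 probe set averaged from 3.91 to 3.99 in all gates and was called in no comparison. The second Tnfrsf1b probe set averaged from 6.08 to 6.16 and was called in none. The second Tnfsf11 probe set averaged 6.16, 5.70, 6.15 and 4.76, with CD25-CD49f+ above CD25-CD49f- cells by 1.39 ± 0.23 (adjusted p = 1.61e-04). Its interaction was -0.93 ± 0.38 and not called (limma adjusted p = 0.280). Without the 4 arrays of lowest correlation that interaction was -1.34 ± 0.21 (adjusted p = 1.90e-04). All means of these dim probe sets lie in the range of absent transcripts.

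**Figure D4:**
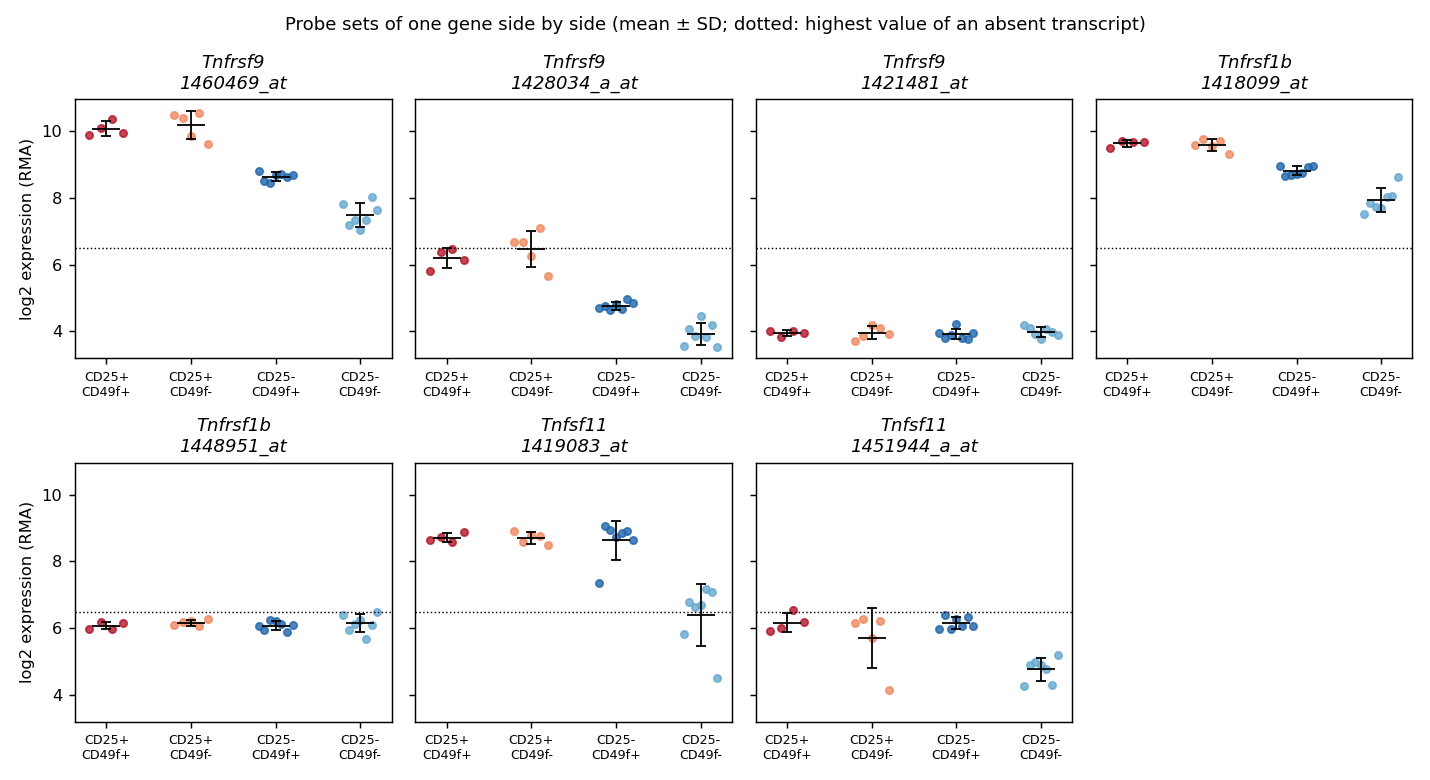
Log2 expression (y axis) by gate (x axis) for each probe set of Tnfrsf9, Tnfrsf1b and Tnfsf11; points are arrays, bars mean ± SD, and the dotted line is the highest value of an absent transcript, 6.50. The bright probe sets lie above the line in both CD25+ gates and the remaining ones lie mostly below it.

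Among the binding partners of the members, Tnf and Lta, the ligands of TNFR2, had their lowest means in CD25-CD49f- cells. Tnf averaged 8.47 ± 0.21, 8.41 ± 0.17, 8.32 ± 0.26 and 7.46 ± 0.15 in CD25+CD49f+, CD25+CD49f-, CD25-CD49f+ and CD25-CD49f- arrays (SD), and CD25-CD49f- cells alone lay apart, 0.86 ± 0.11 below CD25-CD49f+ cells (adjusted p = 2.43e-06). Lta averaged 8.43 ± 0.17, 8.67 ± 0.25, 7.08 ± 0.09 and 6.79 ± 0.21, with CD25+CD49f- above CD25-CD49f- cells by 1.88 ± 0.11 (adjusted p = 3.06e-12). Fasl, the ligand of Fas, ran the other way, at 5.85 ± 0.11, 6.36 ± 0.15, 7.24 ± 0.14 and 7.15 ± 0.12, and CD25+CD49f+ minus CD25-CD49f+ cells gave -1.40 ± 0.09 (adjusted p = 2.48e-10). Its CD25+ means lie in the range of absent transcripts.

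Tnfsf9, the ligand of 4-1BB, averaged 6.10, 6.12, 6.15 and 5.57, and Cd70, the ligand of CD27, from 3.90 to 4.25, both in the range of absent transcripts. In that range were also Tnfrsf8 (from 4.64 to 4.98), the receptor of CD30 ligand, and the RANKL receptors Tnfrsf11a (from 5.84 to 5.89) and Tnfrsf11b (from 4.19 to 4.35). Tnfsf18, the GITR ligand, has no probe set annotated to it alone and was not analysed here.

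Other genes of the pathway were counted by list. Of 21 other receptors measured, 2 were higher and 3 lower in CD25+CD49f- cells than in CD25-CD49f- cells (9.94% of all probe sets called). In CD25-CD49f+ cells 1 was higher and 1 lower than in CD25-CD49f- cells (9.83% called), and in CD25+CD49f+ cells 1 was higher than in CD25-CD49f+ cells (3.23% called), both near the share over all probe sets. Tnfrsf25, the receptor of TL1A, averaged 8.89 ± 0.15, 9.35 ± 0.19, 8.70 ± 0.13 and 8.66 ± 0.16 in CD25+CD49f+, CD25+CD49f-, CD25-CD49f+ and CD25-CD49f- arrays (SD). It was lower in CD25+CD49f+ cells than in CD25+CD49f- cells, with a difference of -0.46 ± 0.11 (adjusted p = 0.0288), a call that was made in 8 of 13 alternatives and in 16 of 23 fits that leave out an array. Tnfrsf1a, TNFR1 with its death domain, was lower in CD25+CD49f- cells than in CD25-CD49f- cells, at -0.53 ± 0.12 (adjusted p = 0.00249), the opposite direction to Tnfrsf1b, and the difference was of like size, on fewer arrays and not called, among arrays without Y-linked signal (-0.49, adjusted p = 0.14) and among those with it and no Xist (-0.58, adjusted p = 0.261).

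Of 11 other ligands measured, 5 were higher and 1 lower in CD25+CD49f- cells than in CD25-CD49f- cells (9.94% of all probe sets called), and 4 were higher and 1 lower in CD25-CD49f+ cells than in CD25-CD49f- cells (9.83% called). Tnfsf14, which encodes LIGHT, averaged 5.71 ± 0.34, 6.68 ± 0.30, 7.01 ± 0.19 and 5.68 ± 0.47 in CD25+CD49f+, CD25+CD49f-, CD25-CD49f+ and CD25-CD49f- arrays (SD). Tnfsf14 was lower in CD25+CD49f+ cells than in CD25+CD49f- cells, at -0.97 ± 0.21 (adjusted p = 0.0172), and higher in CD25-CD49f+ cells than in CD25-CD49f- cells by 1.33 ± 0.17 (adjusted p = 4.27e-06), with ranges apart both times. All CD25+CD49f+ and CD25-CD49f- values of Tnfsf14, from 4.85 to 6.41, lie in the range of absent transcripts, so the sizes of these differences are uncertain. The first was -1.30 among arrays without Y-linked signal (adjusted p = 0.192) and -0.86 among those with it and no Xist (adjusted p = 0.776), on fewer arrays. It was -0.56 with a gene's probe sets averaged (adjusted p = 0.138), and the call was also lost without any of replicates 1 and 4 of CD25+CD49f+ or replicates 1 and 2 of CD25+CD49f-. Tnfsf10, which encodes TRAIL, was higher in CD25+CD49f- cells than in CD25-CD49f- cells by 0.85 ± 0.13 (adjusted p = 6.75e-05).

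**Figure D5:**
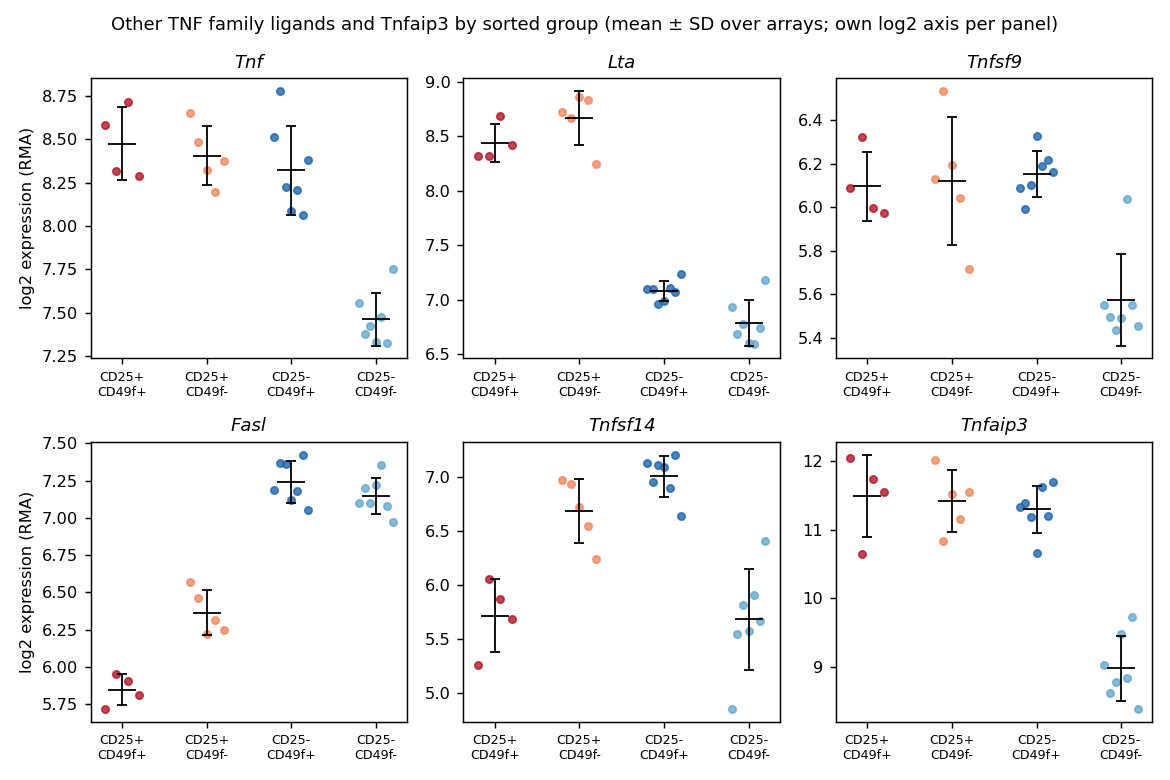
Log2 expression (y axis, a scale of its own per panel) by gate (x axis) for other TNF family ligands and Tnfaip3; points are arrays, bars mean ± SD. Lta lies from 8.25 to 8.85 on the CD25+ arrays and from 6.59 to 7.24 on the CD25- arrays, Fasl runs the opposite way, and Tnfsf14 has its highest mean in CD25-CD49f+ cells.

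Of 18 genes of proximal TNF receptor signalling, 7 were higher and 2 lower in CD25+CD49f- cells than in CD25-CD49f- cells (9.94% of all probe sets called). In CD25-CD49f+ cells 2 were higher than in CD25-CD49f- cells (9.83% called), and limma called none between CD25+CD49f+ and CD25+CD49f- arrays (1.11% called), both near the share over all probe sets. Tnfaip3, which encodes the NF-kappa B inhibitor A20, averaged 11.49 ± 0.60, 11.41 ± 0.45, 11.30 ± 0.34 and 8.98 ± 0.47 in CD25+CD49f+, CD25+CD49f-, CD25-CD49f+ and CD25-CD49f- arrays (SD). It was higher in CD25-CD49f+ cells than in CD25-CD49f- cells by 2.32 ± 0.22 (adjusted p = 4.02e-08). Traf1, an adaptor that binds TNFR2, averaged 9.72, 9.49, 9.12 and 8.40 and was higher in CD25+CD49f- cells than in CD25-CD49f- cells by 1.09 ± 0.21 (adjusted p = 6.07e-04). On the arrays without Y-linked signal it was 0.61 and not called (adjusted p = 0.424), and on those with it and no Xist 1.43 (adjusted p = 0.00107). The inhibitor of apoptosis genes Birc2 and Birc3 were higher in CD25+CD49f- cells than in CD25-CD49f+ cells, by 0.59 ± 0.13 and 0.61 ± 0.13. Averaging the probe sets of Birc3 lowered its value to 0.38, and neither gene was called among arrays with Y-linked signal and no Xist (0.39 and 0.52).

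Likeness of pattern was described over the 4 gate means, each gene centred on its own mean, as a root mean square log2 difference. Irak1bp1 was nearest to Tnfrsf4 (0.05) and averaged 8.02, 7.99, 6.80 and 5.32 in CD25+CD49f+, CD25+CD49f-, CD25-CD49f+ and CD25-CD49f- arrays, followed by Prnp (0.12) and Tnfrsf9 (0.13). Tnfrsf9 was nearest to Tnfrsf4 and Irak1bp1. Vav2 was nearest to Tnfrsf18 (0.04), Cxcl2 to Tnfrsf1b (0.07) and Poglut2 to Fas (0.01). Nearest to Tnfsf11 were Tnfaip3 (0.07), Osbpl3 (0.09) and Ppp1r15a (0.09), and the last averaged 10.53, 10.51, 10.34 and 8.34. Ky was nearest to Tnfsf4 (0.01) and averaged 4.76, 5.07, 4.64 and 4.51 in the same order of gates, in the range of absent transcripts like Tnfsf4. The nearest genes of Cd27 and Tnfsf8 have nearly flat means, so that likeness to them is weak as a description.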

How the data were processed

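Total RNA of 23 sorts was labelled and hybridised to Affymetrix arrays, per the labels' protocols. The deposited values are log2 expression for each of 45101 probe sets, made by the authors with RMA, per the submitters' processing notes; its version was not given in the sources used here. The number of arrays limits the precision.

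Probe sets were named through the array annotation (34958 with 1 gene, 932 with several, 9211 with none). Of the gene IDs of the 34958, 34754 matched RefSeq (GRCm38.p6). The 4 gates were fitted together by limma 3.58.1 (lmFit, contrasts, eBayes; R 4.3.3), and p-values were adjusted over all probe sets. The fit was run on simulated data with independent normal noise of equal spread on every array. Such data hold no outlying arrays, mixed Y-linked signal or differences in RNA quality, so the run does not bear on these. Plots used matplotlib 3.10.9 (Python 3.11.15). The members, lists, tests and markers were chosen with earlier results of these data known. The text names all members, their partners, up to 4 called genes with the largest difference per list and comparison, and the 3 nearest genes by likeness; from these the most informative were described. Alternatives were other scaling, probe set choices, filters, spread models, a replicate block and left-out arrays. Subsets by Y-linked signal, an Actb covariate and leaving out the 4 arrays were added after seeing the data.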

Additional observations from a re-analysis of the deposited data

Results flagged for a closer look

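Single arrays lay far from the rest of their gate in 7 of 52 gate and probe set combinations, where chance gives about 1 in 20. Tnfrsf18 was 10.15 in CD25+CD49f- replicate 5, where the other arrays of that gate ran from 10.76 to 10.96. The second Tnfsf11 probe set was 4.15 in the same array, against 5.69 to 6.27 in the others. Cd27 was 10.32 in CD25+CD49f+ replicate 3 (others 10.11 to 10.14) and 10.58 in CD25-CD49f- replicate 7 (others 9.75 to 9.96). Fas was 8.20 in CD25-CD49f+ replicate 6 (others 7.76 to 7.92). In CD25-CD49f+ replicate 1, the bright Tnfsf11 probe set was 7.35 (others 8.65 to 9.05) and Tnfsf8 was 6.40 (others 6.90 to 7.21).

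The CD49f difference differed between CD25+ and CD25- cells by the interaction test for 11 of 63 member probe sets and listed genes, where 3.12% of all probe sets were called. Among members the interaction was -1.47 for Tnfrsf4, -1.27 and -1.11 for the 2 called Tnfrsf9 probe sets, -0.84 for Tnfrsf1b and -2.25 for Tnfsf11. Among the other genes it was -2.30 ± 0.27 for Tnfsf14 (limma adjusted p = 4.92e-06), with 2 gates in the range of absent transcripts, -2.24 ± 0.36 for Tnfaip3 (adjusted p = 2.51e-04), -0.79 ± 0.17 for Tnf (adjusted p = 0.00642; -0.49 and not called among arrays with Y-linked signal and no Xist) and -0.61 ± 0.12 for Fasl (adjusted p = 0.00332). Tnfsf9 gave -0.61 ± 0.17 (adjusted p = 0.0469), called in 5 of 23 fits that leave out an array, and Tnfrsf25 gave -0.50 ± 0.14 (adjusted p = 0.0446), called in 6 of 23.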

How the results depend on the processing

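No called member difference in the 7 comparisons changed sign under the alternatives or with an array left out. The count of called members moved by more than 1.5 times in 3 cases. Array weights gave 1 gene in place of 0 between CD25+CD49f+ and CD25+CD49f- cells. The 10 arrays with Y-linked signal and no Xist gave 3 genes in place of 5 between CD25+CD49f- and CD25-CD49f+ cells, and 2 in place of 4 for the interaction, on fewer arrays. Leaving out each array in turn kept the 7 counts at 0, 5 to 6, 4, 7, 5, 6 to 7 and 4 to 5, in the order CD49f within CD25+, CD49f within CD25-, CD25 within CD49f+, CD25 within CD49f-, CD25+CD49f- minus CD25-CD49f+, CD25+CD49f+ minus CD25-CD49f- and the interaction. Fas between CD25-CD49f+ and CD25-CD49f- cells was called under 5 of 13 alternatives. Averaging a gene's probe sets lowered the difference between CD25+CD49f- and CD25-CD49f- cells to 1.74 for Tnfrsf9 and 0.84 for Tnfrsf1b, since dim probe sets enter the mean.

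Whether the replicate numbers of the titles pair the arrays could not be settled from so few arrays per gate. Of 29 same-numbered pairs, 12 had deviations correlated above 0.1, with r from -0.45 to 0.52. In 5 of the pairs the same number gave the highest correlation. With the number as a replicate block, 5 members were called for CD49f within CD25- cells, 7 for CD25 within CD49f- cells and 4 for the interaction, and the Tnfrsf4 interaction was -1.48. Levels below 6.50 limit what can be read for Tnfsf4 and the dim probe sets. Across all probe sets, the calls between CD25+CD49f+ and CD25+CD49f- cells ranged from 135 with the arrays of Y-linked signal to 978 with array weights, against 500.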

Other observations

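Further genes of the lists moved with single gates. Ltb, which encodes lymphotoxin beta, averaged 12.31 ± 0.11, 12.14 ± 0.30, 11.75 ± 0.26 and 12.13 ± 0.18 in CD25+CD49f+, CD25+CD49f-, CD25-CD49f+ and CD25-CD49f- arrays (SD, n = 4, 5, 7 and 7). It was lower in CD25-CD49f+ cells than in CD25-CD49f- cells, at -0.38 ± 0.12 (limma adjusted p = 0.0375), a call made in 8 of 13 alternatives and in 16 of 23 fits that leave out an array. Tank, a TRAF-binding regulator of NF-kappa B signalling, averaged 9.54, 9.29, 9.09 and 8.34 in the same order and was higher in CD25+CD49f+ cells than in CD25-CD49f- cells by 1.20 ± 0.30 (adjusted p = 0.00905). Without the 4 arrays of lowest correlation, of which CD25-CD49f- replicates 1 and 7 had the lowest Tank values of their gate at 7.76 and 6.95, the difference was 0.80 (adjusted p = 1.34e-05).

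Tnfrsf13b, which encodes TACI, a receptor best known from B cells, averaged 8.67 ± 0.12, 8.58 ± 0.34, 8.38 ± 0.16 and 8.12 ± 0.29 and was higher in CD25+CD49f+ cells than in CD25-CD49f- cells by 0.55 ± 0.15 (adjusted p = 0.0177). The mean of the 4 measured B cell markers ran from 5.75 to 6.64 in CD25+CD49f+ arrays and from 5.23 to 6.40 in CD25-CD49f- arrays, and its part in this difference was not tested. Traf5, an adaptor of several of these receptors, was lower in CD25+CD49f- cells than in CD25-CD49f+ cells, at -0.47 ± 0.12 (adjusted p = 0.0162). Without CD25+CD49f- replicate 5, the array with the largest Actb 3′ to 5′ difference, it was -0.31 (adjusted p = 0.0415), and with that difference as a covariate it was -0.25 and not called (adjusted p = 0.147).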
